A study of Mus musculus with 8 samples.

Results

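MiR-223, miR-142a and miR-21a, which are abundant in leukocytes, were measured in the serum of irradiated and non-irradiated mice. Both arms of each hairpin were taken by name from the miRNAs on the array, so that mmu-miR-223-3p, mmu-miR-223-5p, mmu-miR-142a-3p, mmu-miR-142a-5p, mmu-miR-21a-5p and mmu-miR-21a-3p (below without the species prefix) were 6 of 1881 mouse miRNAs. No threshold on their measured values was used, but the choice was made with earlier results of these data known. The groups were 4 sera of non-irradiated mice (0 Gy) and 4 sera of mice given a whole-body exposure to X-rays of 7 Gy at 1.0 Gy/min. All mice were male C57BL/6NJcl of 8 weeks of age, with no further treatment named. Irradiated sera were taken 72 h after exposure, whereas no time of collection is given for the sera of the other group in the sources used here. Each serum was hybridised to 1 array of a 1-colour Agilent microarray, with Cy3-labelled miRNA made from 30 ng of serum RNA. The labels number the sera of a group 1 to 4 and do not state that each came from its own mouse, so that p-values measure the spread between these sera.

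A miRNA hairpin is cut into a 5p and a 3p arm, and the arm that is loaded into an Argonaute protein pairs with messenger RNAs mainly through its seed. MiR-223 is made chiefly by myeloid cells, where it restrains granulocyte production and activation. MiR-142 is transcribed in nearly all blood cell lineages, and both of its arms are used. MiR-21 is abundant in leukocytes but also in many other tissues, and it is known for repressing inhibitors of growth and survival such as Pdcd4. Serum miRNAs are carried in vesicles or bound to proteins, and they are released by blood cells, endothelium and solid organs. Serum is a bulk sample, so that fewer releasing cells and less RNA released per cell cannot be told apart.

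The mature sequences show how the members differ in the bases that choose their targets. All 6 matched a RefSeq entry by name, as did 1608 of the 1881 miRNAs on the array, and the sequences below are those of RefSeq on GRCm38.p6, read from the 5′ to the 3′ end with the seed (bases 2 to 8) in capitals.
miR-223-3p: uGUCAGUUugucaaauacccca
miR-223-5p: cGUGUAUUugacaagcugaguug
miR-142a-3p: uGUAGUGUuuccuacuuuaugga
miR-142a-5p: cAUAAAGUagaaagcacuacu
miR-21a-5p: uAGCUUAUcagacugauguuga
miR-21a-3p: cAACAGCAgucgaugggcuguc

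No member shared its seed with another member. Only miR-21a-5p shared its seed with another mature miRNA of the RefSeq table, miR-21c, and the sequences of that miRNA and of miR-21b are shown because probes could confuse them with miR-21a-5p.
miR-21b: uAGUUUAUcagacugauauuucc
miR-21c: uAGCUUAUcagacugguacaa
Counted from 1 at the 5′ end, miR-21a-5p and miR-21c had the same first 15 bases and 16 identical bases of 21, with the substitutions A16G, G18A, U19C, U20A and G21A. MiR-21b had 18 of 22 bases identical to miR-21a-5p, with C4U in the seed. Neither miR-21b nor miR-21c was called detected on any of the 8 arrays.

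The hairpins place both arms of each member, shown in capitals, on 1 transcript. Mir223 lies at chrX:96242817-96242926 on the plus strand, within the non-coding gene F630028O10Rik. Mir142 lies at chr11:87756864-87756927 on the plus strand, with Tspoap1 as the nearest coding gene. Mir21a lies at chr11:86584067-86584158 on the minus strand within the coding gene Vmp1, 1.17 Mb from Mir142.
Mir223: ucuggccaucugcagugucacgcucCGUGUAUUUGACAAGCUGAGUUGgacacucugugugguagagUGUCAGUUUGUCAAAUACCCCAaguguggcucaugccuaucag
Mir142: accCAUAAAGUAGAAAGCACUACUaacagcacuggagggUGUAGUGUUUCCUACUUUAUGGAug
Mir21a: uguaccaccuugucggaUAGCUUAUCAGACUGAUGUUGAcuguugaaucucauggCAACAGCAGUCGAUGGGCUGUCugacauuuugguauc
Mir142b is transcribed from the strand opposite to Mir142, and all 20 bases of miR-142b are the reverse complement of bases of miR-142a-3p. MiR-142b was not called detected on any array.

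The arrays differed in ways that bear on every value below. The number of detected miRNAs was 531 to 603 at 0 Gy and 378 to 687 at 7 Gy. The labelling spike-ins, control RNAs added before the Cy3 reaction, had a log10 signal of 2.73 to 3.68 at 0 Gy and of 3.35 on 7 Gy replicate 2, but of 1.95 to 2.31 on 7 Gy replicates 1, 3 and 4, where the software placed them out of range. The spike-ins of the hybridization step had log10 signals of 4.34 to 4.51 at 0 Gy and 3.88 to 4.43 at 7 Gy, and no array was out of range for these. All arrays were on 1 slide, with the groups in separate slide columns, so that column and group cannot be told apart. Values below are given as summed signals, the background-subtracted intensity summed over the spots of a miRNA, as deposited, and as scaled signals, for which each array was brought to the same 90th percentile over the 1881 miRNAs. The scaling multiplied 7 Gy replicates 1 and 3 by 4.33 and 4.63, and the other arrays by 0.379 to 1.06.

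MiR-223-3p, miR-142a-3p, miR-142a-5p and miR-21a-5p were detected in every non-irradiated serum. In irradiated sera, miR-223-3p was detected in 4 of 4, whereas miR-142a-3p, miR-142a-5p and miR-21a-5p were detected in 1 of 4, which was the same serum (7 Gy replicate 2). MiR-223-5p and miR-21a-3p were detected in 0 of 8 sera, and so neither could be compared. None of the 30 spots of miR-223-5p or of miR-21a-3p stood well above background on any array, and the spot means per probe lay between −3.42 and 2.38 and between −3.84 and 5.27, around 0. Other miRNAs had the same pattern. Of 445 miRNAs detected on every 0 Gy array, 56 (12.6%) were detected at 7 Gy on replicate 2 alone, and 3 members were among them. Both arms were thus measurable for miR-142a, and a single arm for miR-223 and for miR-21a.

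**Figure D1:**
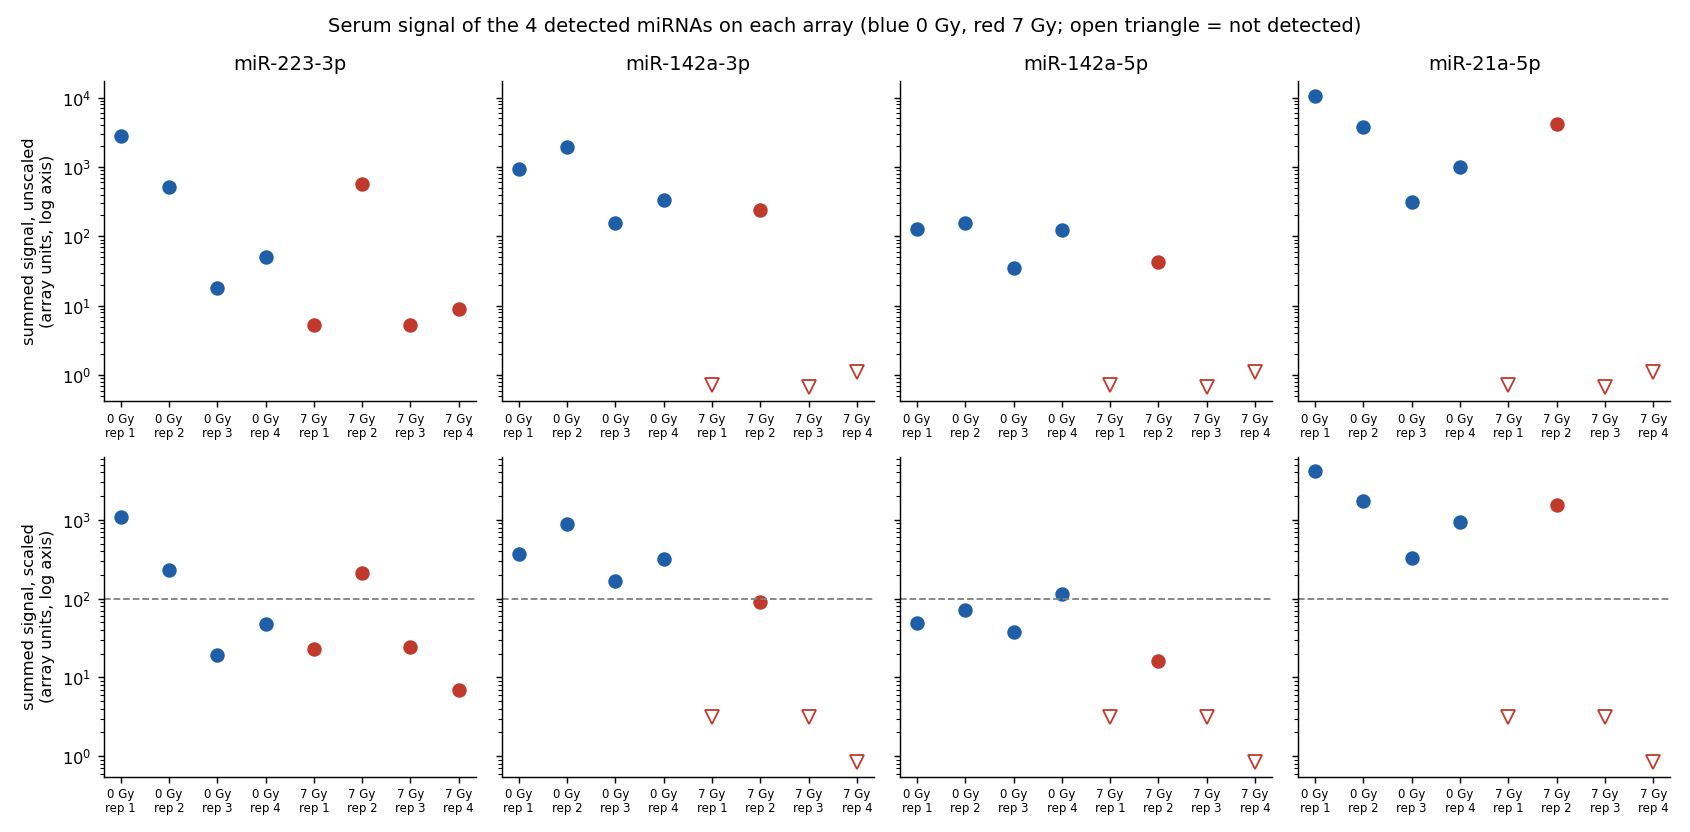
Summed signal (upper row) and scaled signal (lower row) of the 4 detected members on each array, on log axes, with 0 Gy in blue and 7 Gy in red. Open triangles stand at the lowest signal of any detected miRNA on an array where the member was not detected, the dashed line marks a scaled signal of 100, and 7 Gy replicate 2 is the irradiated array on which all 4 members were measured.

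MiR-223-3p had summed signals of 2827, 507, 18.0 and 50.7 in non-irradiated sera 1 to 4 and of 5.29, 567, 5.29 and 9.09 in irradiated sera 1 to 4. The irradiated sera 1, 3 and 4 were lower than every non-irradiated serum before scaling, and irradiated serum 2 lay above 3 of the 4 non-irradiated ones. After scaling the values became 1102, 229, 19.1 and 47.1 (0 Gy) against 22.9, 215, 24.5 and 6.87 (7 Gy). Both groups then spanned a wide and overlapping range, and 3 scaled irradiated values were at or under 24.5. The software's own error of a summed signal was 7.56% to 14.6% of the value, which is small beside the differences between sera.

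MiR-142a-3p, which marks blood cells of nearly all lineages, had summed signals of 938, 1965, 158 and 339 in non-irradiated sera and of 242 in irradiated serum 2. Scaled, these were 366, 887, 168 and 315 at 0 Gy and 91.5 in irradiated serum 2. The irradiated serum lay inside the 0 Gy range before scaling and under every 0 Gy value after it. On irradiated arrays 1, 3 and 4, the mean spot signal per probe of miR-142a-3p was between −0.139 and 2.41, where 0 Gy arrays gave 208 to 4562.

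MiR-142a-5p, the other arm of the same hairpin, had summed signals of 127, 158, 35.0 and 123 at 0 Gy and of 42.9 in irradiated serum 2. Its scaled signals were 49.6, 71.4, 37.3 and 115 at 0 Gy and 16.2 in irradiated serum 2. As for the 3p arm, the irradiated value was inside the 0 Gy range unscaled and below it scaled. Spot means on irradiated arrays 1, 3 and 4 were between −1.03 and 3.35, and those on 0 Gy arrays were 59.2 to 284.

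MiR-21a-5p, the member with sources well beyond blood cells, had summed signals of 10686, 3794, 308 and 1014 at 0 Gy and of 4138 in irradiated serum 2. Scaled, it was at 4167, 1713, 328 and 942 at 0 Gy and at 1567 in irradiated serum 2. Unlike both arms of miR-142a, it remained inside the 0 Gy range in that serum on either scale. On irradiated arrays 1, 3 and 4 its spot means were between −1.60 and 0.752, at background, against 444 to 29095 on 0 Gy arrays.

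The lowest signal at which any miRNA was called detected was 3.14, 3.17 and 0.843 on the scaled axis of irradiated arrays 1, 3 and 4. Every 0 Gy value of miR-142a-3p, miR-142a-5p and miR-21a-5p was above those levels, the lowest being 37.3 for miR-142a-5p. Those levels are not detection limits of the members' own probes, and the labelling spike-ins of those arrays were out of range. Whether a serum with 0 Gy levels would have been called detected there cannot be told from this. Fold changes that include undetected values are given below only with a floor in their place, or as the software's 0.1 in the setting with no floor, and their size depends on that choice.

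**Figure D2:**
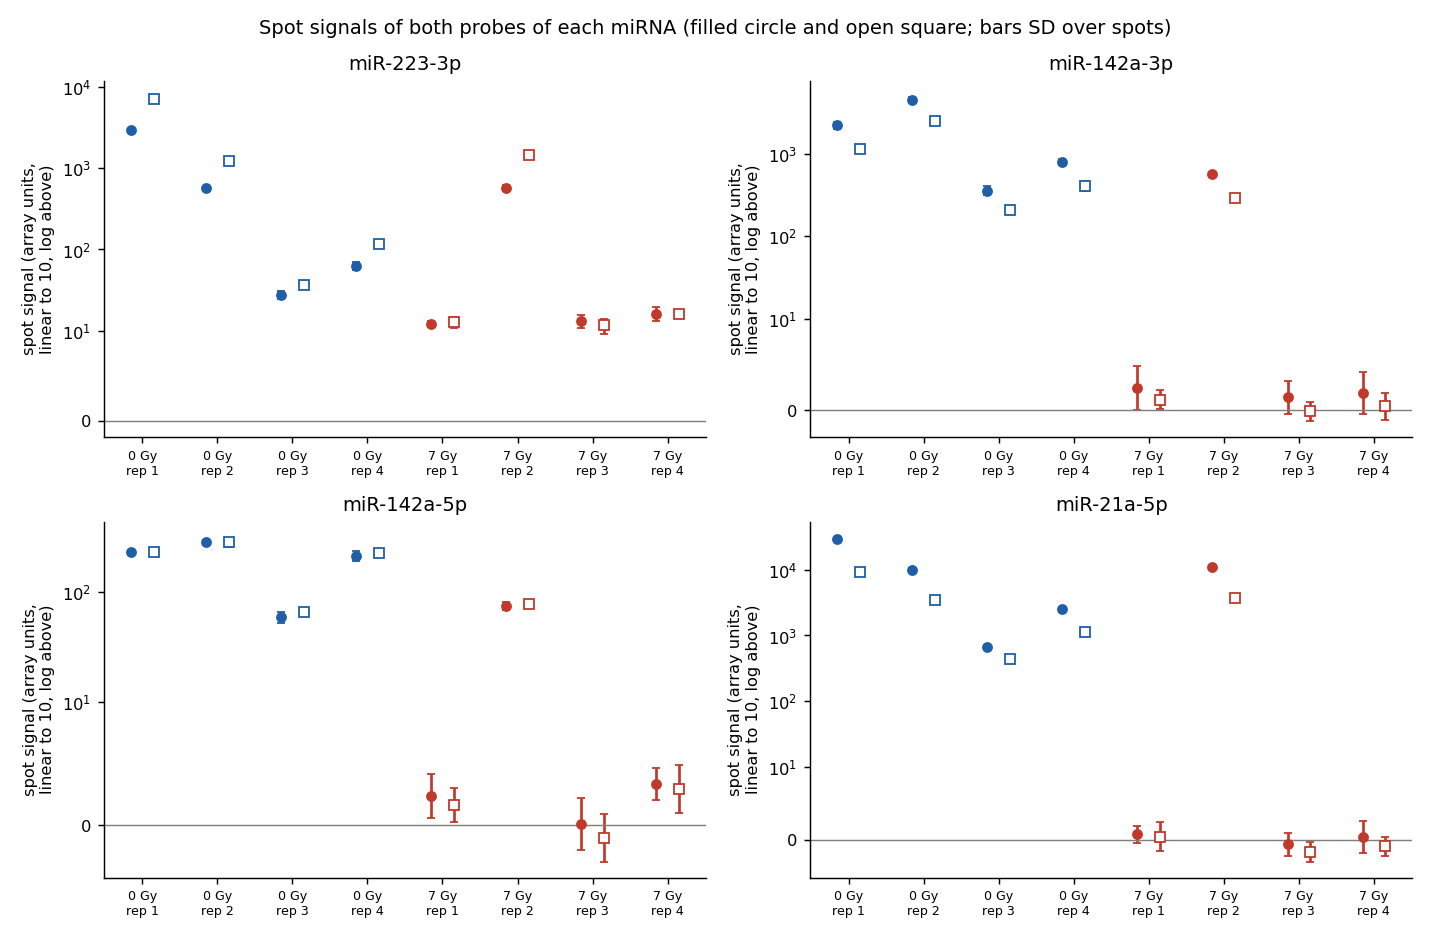
Mean spot signal (array units, linear to 10 and logarithmic above) of the 2 probes of each detected member on each array, as filled circles and open squares with bars for the SD over 15 spots, 0 Gy in blue and 7 Gy in red. On 7 Gy replicates 1, 3 and 4 both probes of miR-142a-3p, miR-142a-5p and miR-21a-5p stood near 0, whereas both probes of miR-223-3p stood at 11.8 or higher.

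Each detected member was read by 2 probes of 15 spots, and these were followed separately. All 30 spots stood well above background wherever miR-142a-3p, miR-142a-5p or miR-21a-5p was detected, and 0 of 30 did elsewhere. MiR-223-3p kept 23, 25 and 26 of 30 such spots on irradiated arrays 1, 3 and 4. The log2 ratio of the first to the second probe stayed between 0.79 and 0.97 for miR-142a-3p and between −0.16 and 0.01 for miR-142a-5p on the 5 arrays that detected them. For miR-21a-5p it moved from 0.57 on 0 Gy replicate 3, the array with its lowest measured signal, to 1.65 on 0 Gy replicate 1, the array with its highest. For miR-223-3p it was −1.12, −1.29 and −1.32 on the 3 arrays with its highest summed signals, but −0.07, 0.16 and 0.03 on irradiated arrays 1, 3 and 4. The probes of miR-223-3p therefore did not keep 1 ratio over the range of signal. Probe sequences are not given in the sources used here.

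The level of the members varied widely among the non-irradiated sera themselves. MiR-223-3p had an SD of 2.58 on the log2 scale of the scaled signals, the ninth largest (rank 9) of the 445 miRNAs detected on every 0 Gy array, whose median SD was 0.75. Its highest 0 Gy value was 57.6 times its lowest after scaling and 157 times before it. MiR-21a-5p followed with an SD of 1.54 (rank 48) and a 12.7-fold range. MiR-142a-3p had an SD of 0.99 (rank 140) with a 5.28-fold range, and miR-142a-5p an SD of 0.70 (rank 254) with a 3.07-fold range. Before scaling the SDs were 3.28 (rank 9) for miR-223-3p, 2.23 (rank 34) for miR-21a-5p, 1.60 (rank 54) for miR-142a-3p and 0.99 (rank 106) for miR-142a-5p, beside a median of 0.53. The ranges were then 34.7-fold for miR-21a-5p, 12.5-fold for miR-142a-3p and 4.51-fold for miR-142a-5p. On either scale the myeloid miRNA and miR-21a-5p were less even between untreated sera than either arm of miR-142a, as a description over 4 arrays.

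The question of the study's arrays was which serum miRNAs differ between 7 Gy and 0 Gy. For this comparison scaled signals under 100 were set to 100, a floor that follows the lower cut-off in the study's methods, and 208 miRNAs detected on at least 3 arrays and above the floor on at least 1 were tested with limma. All 4 detected members were tested. At an adjusted p under 0.05, 8 miRNAs (3.85%) were called in either direction and 4 (1.92%) were called lower, and 0 of the 4 members were called. At an unadjusted p under 0.05 the number of members was 1 with limma and 1 with the two-group test of the study's methods, miR-142a-3p in each, beside 16 tested miRNAs (7.69%) in the lower direction with limma. All 4 members had a log2 fold change below 0, which held for 84 of all tested miRNAs (40.4%). For both arms of miR-142a no value above 0 was possible, because no irradiated serum exceeded the floor for either arm. The sign is therefore informative only for miR-21a-5p and miR-223-3p. The median of the 4 members, which includes both arms, was −1.37, and that of all tested miRNAs was 0.17.

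MiR-142a-3p had a floored mean of 434 ± 314 (SD, n = 4) at 0 Gy and lay at the floor of 100 on all 4 irradiated arrays. Its log2 fold change was −1.86 with a standard error of 0.46, and the groups did not overlap, which was so for 11 of the tested miRNAs (5.29%) in the lower direction. The two-sided exact permutation test gave p = 0.0286, the smallest that 4 arrays against 4 allow, and limma gave an adjusted p of 0.0601. The groups were thus separate, but the difference missed the threshold over all tested miRNAs. It passed without 0 Gy replicate 3 (−2.23, limma adjusted p = 0.0489) and without 7 Gy replicate 2 (−1.86, limma adjusted p = 0.0419). In the latter fit its unadjusted limma p rose from 0.00474 to 0.0127, while 56 miRNAs were called higher and 14 of 208 (6.73%) lower. The irradiated arrays left in that fit were the 3 with labelling spike-ins out of range. The fold change is set by the floor and is no estimate of the true ratio.

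The non-irradiated sera had a floored mean of 1788 ± 1684 (SD, n = 4) for miR-21a-5p, the irradiated ones of 467 ± 733 (SD, n = 4), with 3 irradiated arrays at the floor. Its log2 fold change of −2.62, with a standard error of 1.15, was the fifth lowest (rank 5) of the 208, but the groups overlapped through irradiated serum 2. The adjusted p from limma was 0.185 and the two-sided exact permutation p was 0.0857. Without 7 Gy replicate 2 the log2 fold change was −3.61 and the adjusted p was 0.0197, in a fit on the 3 irradiated arrays with labelling spike-ins out of range that called 14 of 208 miRNAs (6.73%) lower. With all 8 arrays it was called under array weights (−3.06, limma adjusted p = 0.0139). That fit called 61 miRNAs higher and 14 of 208 lower.

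MiR-223-3p had floored means of 383 ± 484 (SD, n = 4) and 129 ± 57.3 (SD, n = 4), with 2 arrays of the 0 Gy group and 3 of the 7 Gy group at the floor. Its log2 fold change of −0.89 had a standard error of 0.79, an adjusted p of 0.478 in limma and a two-sided exact permutation p of 0.429. The difference was within the spread between sera. Without 0 Gy replicate 1, which held its highest signal, the log2 fold change was −0.12.

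MiR-142a-5p lay under the floor on 7 of 8 arrays, and its log2 fold change of −0.049, with limma's adjusted p at 0.700 and a standard error of 0.088, compares little more than the floor with itself. Both arms of miR-142a were detected on the same 5 arrays, and only the 3p arm stood above the floor on every 0 Gy array.

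With the floor at 10 or at 1 the values of the miR-142a arms under 100 entered the comparison. At a floor of 10 the log2 fold change of miR-142a-3p was −4.38 with a standard error of 0.84 (limma, adjusted p = 0.0448) and that of miR-142a-5p was −2.47 with a standard error of 0.38 (limma, adjusted p = 0.0294), where 19 of 513 tested miRNAs (3.7%) were called lower. At a floor of 1 miR-142a-3p was at −6.87 with a standard error of 1.39 (limma, adjusted p = 0.0453) and miR-142a-5p at −4.96 with a standard error of 0.95 (limma, adjusted p = 0.0429). There 6 of 631 miRNAs (0.951%) were called lower, of which the 2 arms of miR-142a were a part, and 32 (5.07%) had lower groups that did not overlap. Both arms were thus called lower at 7 Gy at these floors, with 1 irradiated array measured and 3 at the floor.

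MiR-21a-5p had the lowest log2 fold change of all 631 at a floor of 1, −7.60 with a standard error of 2.17, yet was not called (limma, adjusted p = 0.0846; two-sided exact permutation p = 0.0857). MiR-223-3p was at −2.03 with a standard error of 1.36 (limma, adjusted p = 0.341). Of the 4 members, miR-21a-5p had the lowest fold change and the largest standard error at each of the floors of 100, 10 and 1. With no scaling and a floor of 1, no miRNA was called by limma (82 had an unadjusted p under 0.05 in the lower direction), and the groups of miR-142a-3p and miR-142a-5p overlapped, with a two-sided exact permutation p of 0.0571 for each. On that scale 19 of the 631 miRNAs (3.01%) had lower groups that did not overlap.

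**Figure D3:**
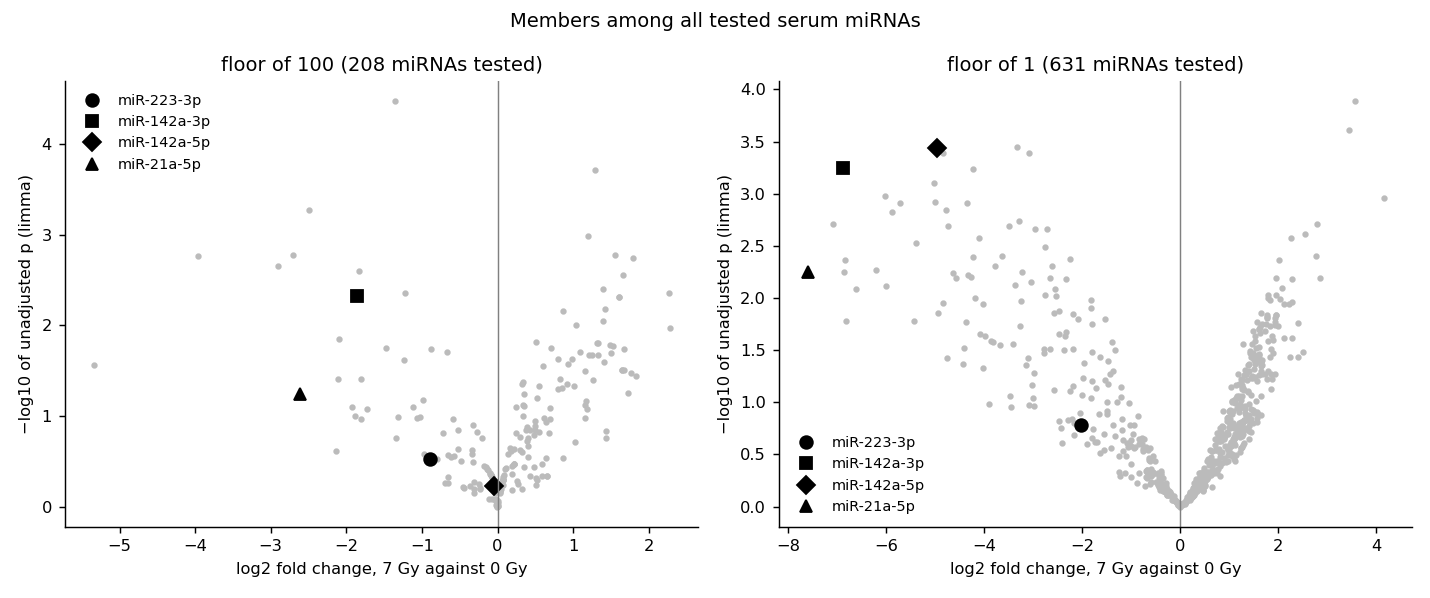
Log2 fold change of 7 Gy against 0 Gy (horizontal) and −log10 of the unadjusted limma p (vertical) for all tested miRNAs as grey points, with the 4 tested members as black symbols, at a floor of 100 (left) and of 1 (right). The members lie on the lower side in both panels, and miR-142a-5p moves from −0.05 to −4.96 with the floor.

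The spot signals, which are not replaced where a miRNA goes undetected, gave the same order. Over the 8 probes of the tested members, with a floor of 1 on the scaled spot signal, the log2 fold changes were −6.14 and −6.54 for miR-142a-3p, −4.39 and −4.62 for miR-142a-5p, −8.13 and −7.49 for miR-21a-5p and −1.47 and −2.10 for miR-223-3p. The 4 probes of miR-142a had groups that did not overlap, as did 61 of 1397 tested probes (4.37%) in the lower direction. None of the 8 was called by limma (adjusted p 0.0694 to 0.354), and 6 had an unadjusted p under 0.05, which held for 170 of all probes in the lower direction (12.2%). Without 7 Gy replicate 2, the 6 probes of miR-142a-3p, miR-142a-5p and miR-21a-5p were called lower (limma, adjusted p 0.000128 to 0.00208), among 203 of 1395 probes (14.6%) called lower in that fit. The irradiated arrays left in it are the 3 with labelling spike-ins out of range.

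The labelling spike-ins were read beside the members. The 3 arrays without miR-142a-3p, miR-142a-5p and miR-21a-5p were the 3 with spike-ins out of range. Of the other 5 arrays, 0 Gy replicate 3 had the lowest spike-in signal. Scaled miR-21a-5p, 328, and miR-223-3p, 19.1, were lowest of the 5 there, but both arms of miR-142a were lowest on 7 Gy replicate 2. Out of range, scaled miR-223-3p was higher on 7 Gy replicates 1 and 3, at 22.9 and 24.5, and lower on replicate 4, at 6.87. On 7 Gy replicate 2, with a spike-in log10 signal of 3.35, miR-21a-5p was at 1567, against 942 on 0 Gy replicate 4 at 3.37 and 1713 on 0 Gy replicate 2 at 3.45. MiR-142a-3p on the same arrays was at 91.5, 315 and 887, and miR-142a-5p at 16.2, 115 and 71.4. At like spike-in signal, scaled miR-21a-5p of the irradiated serum was therefore between both 0 Gy sera and the arms of miR-142a below both, for 1 serum. Before scaling miR-21a-5p was above both, at 4138 against 1014 and 3794 on 0 Gy replicates 4 and 2. The arms of miR-142a stayed below both, with 242 against 339 and 1965 (3p) and 42.9 against 123 and 158 (5p).

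When the fit took the labelling spike-ins into account as a covariate, the 7 Gy to 0 Gy difference in log2 was 0.21 for miR-21a-5p and 0.38 for miR-223-3p, both turned in sign, −1.44 for miR-142a-3p and −0.04 for miR-142a-5p, with no member called. At a floor of 1 with the same covariate the values were −1.57, 1.28, −3.31 and −2.82 in that order, with adjusted p values of 0.671, 0.693, 0.371 and 0.323 in limma. With the 5 arrays in range alone and a floor of 1 they were 0.36, 0.80, −1.98 and −1.94, with 7 Gy replicate 2 as the single irradiated array and its spread assumed equal to that at 0 Gy. No miRNA was called in these fits, and 21 (floor of 100), 44 and 10 had an unadjusted p under 0.05 in the lower direction. The 3 arrays out of range were all irradiated, so that low spike-in signal and dose cannot be told apart on them.

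**Figure D4:**
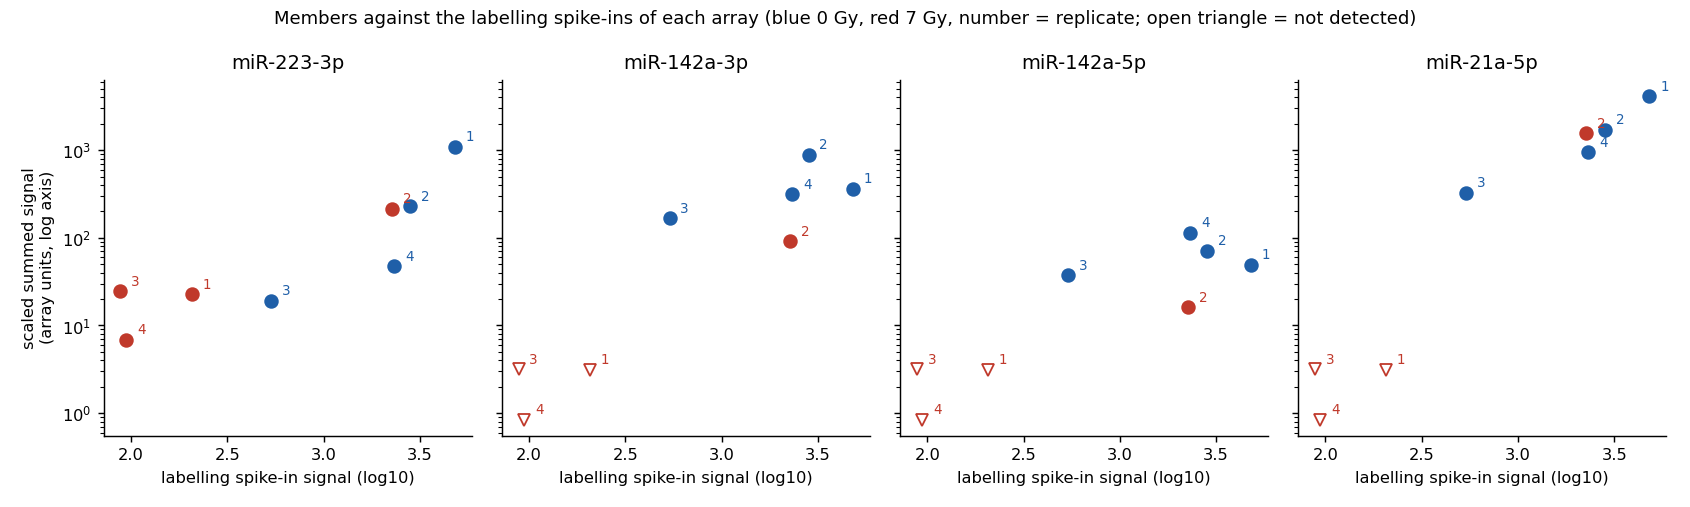
Scaled summed signal of each detected member (log axis) against the log10 signal of the labelling spike-ins on the same array, with 0 Gy in blue, 7 Gy in red and the replicate number beside each point. Open triangles stand at the lowest detected signal where the member was not detected, which is on the 3 arrays with spike-ins of 1.95 to 2.31.

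Within an array, the difference between members does not depend on the scaling. Between the arms of miR-142a it was 1.46 to 3.64 on the log2 scale over the 0 Gy arrays (3p minus 5p), and 2.49 on 7 Gy replicate 2, inside that range. MiR-223-3p minus miR-21a-5p was −4.32 to −1.92 at 0 Gy and −2.87 on 7 Gy replicate 2, also inside. MiR-142a-3p minus miR-21a-5p was −3.51 to −0.95 at 0 Gy and −4.10 on 7 Gy replicate 2, and miR-142a-5p minus miR-21a-5p was −6.39 to −3.04 and −6.59. In the irradiated serum with measurable members both arms of miR-142a were thus lower relative to miR-21a-5p than in each non-irradiated serum. Of the 6 pairs of detected members, 4 were inside the 0 Gy range on that array, and 0 of 15 pairs could be tested because a single irradiated array held both members of any pair.

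The members were then read against other leukocyte miRNAs, among them the lymphocyte miRNAs miR-150 and miR-181 and the inflammatory miR-146 and miR-155. Of 14 on the array, 11 were detected on at least 1 array and 8 were tested. None was called by limma or by the two-group test of the methods after adjustment, and 0 had an unadjusted p under 0.05 by either. All 8 had a log2 fold change below 0, as did 84 of all tested miRNAs (40.4%), with a median of −0.15 beside 0.17 for all tested miRNAs. All but miR-342-3p lay at the floor of 100 on all 4 irradiated arrays. Their fold change could not be above 0, so that the shared sign is no test of the list. The summed scaled signal of the list was 767 to 1033 at 0 Gy and 181 to 540 at 7 Gy, which did not overlap. None of the 8 tested miRNAs had lower groups that did not overlap, which held for 11 of all tested miRNAs (5.29%). MiR-342-3p alone gave 108, 305, 49.9 and 141 of the unscaled sums of 125, 647, 55.3 and 239 in irradiated sera 1 to 4.

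MiR-342-3p had the highest signal in that list and was detected on all arrays, with summed signals of 151 to 960 at 0 Gy and 108, 305, 49.9 and 141 in irradiated sera 1 to 4. MiR-150-5p, enriched in mature lymphocytes, had summed signals of 345, 348, 4.66 and 66.2 at 0 Gy and was detected at 7 Gy on replicate 2 alone, at 16.1. It thus had the detection pattern of miR-142a and miR-21a-5p. MiR-181a-5p was at 95.1 to 170 at 0 Gy and was detected on 2 irradiated arrays, at 25.8 and 11.1. The log2 fold changes of the 3 were −0.62, −0.27 and −0.32 at a floor of 100 (limma, adjusted p 0.472, 0.313 and 0.294).

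Markers of other sources of serum RNA were read on the same arrays. Red cell miRNAs had 6 members on the array, all detected somewhere, 5 of them tested and 5 below 0, with a median of −1.34, 0 called by limma or by the other test after adjustment, and 1 with an unadjusted p under 0.05 by each. Their summed scaled signal was 16485 to 82115 at 0 Gy and 7323 to 25822 at 7 Gy, which overlapped. MiR-451a, made almost only by the red cell lineage, had summed signals of 172768, 86473, 2595 and 5993 in non-irradiated sera, against 19.3, 39270, 7.11 and 14.0 in irradiated ones. Like each detected member before scaling, it was lower on 0 Gy replicates 3 and 4 than on 1 and 2, and among irradiated arrays it was highest on replicate 2. MiR-486a-5p, also abundant in red cells, was detected on all 8 arrays and had neither pattern, with 16671, 17736, 32467 and 11568 in non-irradiated sera and 2922, 6026, 5569 and 9676 in irradiated ones. MiR-16-5p was at 17678, 9647, 59.4 and 73.5 at 0 Gy and was detected at 7 Gy on replicate 2 alone, at 2140. The part of red cell RNA in the values of the members was not tested.

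The other lists were platelet and endothelial, liver, muscle, and epithelial and islet miRNAs, and 10 of their members were tested, with 0 called by limma or by the other test after adjustment and 2 with an unadjusted p under 0.05 by each, 1 in each direction. MiR-222-3p, present in endothelium and platelets, had the lowest adjusted p of the 10 (log2 fold change −1.83, standard error 0.40, limma adjusted p = 0.0522). Its summed signals were 736 to 1101 at 0 Gy and 70.9, 314, 32.2 and 164 at 7 Gy. The other tested miRNAs of its list were at 1.44 (miR-24-3p), −0.32 (miR-126a-3p) and −0.10 (miR-221-3p). MiR-375-3p, of islet and epithelial cells, was at 1.32 with a standard error of 0.42 (limma, adjusted p = 0.117) and was detected on all 8 arrays. Log2 fold changes above 0 were thus seen for miR-24-3p and miR-375-3p, whereas the 4 members were below 0. MiR-122-5p, at 0.0068 (limma, adjusted p = 0.999), showed no difference in either direction. For both arms of miR-142a the sign was fixed, because no irradiated serum exceeded the floor for either arm. The contrast in sign therefore rests on miR-21a-5p and miR-223-3p, neither of which was called. MiR-122-5p, which is made in hepatocytes, was at 459, 979, 4.94 and 102 in non-irradiated sera 1 to 4 and at 2128 on 7 Gy replicate 2, and was undetected on irradiated arrays 1, 3 and 4. The liver list had 3 of 4 miRNAs detected on each 0 Gy array, 4 on 7 Gy replicate 2, and 0 on the other irradiated arrays. Loss of detection on those 3 arrays was thus shared by a part of the blood cell miRNAs and by those of liver. MiR-223-3p, miR-342-3p, miR-451a and miR-486a-5p stayed detected on all 8 arrays. MiR-133b-3p of muscle was detected on all 8 arrays, at 713 to 4613 at 0 Gy and 99.3 to 4078 at 7 Gy. The part of these sources in the values of the members was not tested.

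The miRNAs whose scaled and floored signals were most like those of each member over the 8 arrays were found by the root mean square difference of centred log2 values. For miR-142a-3p they were let-7b-5p (0.56), miR-130b-3p (0.59) and miR-140-5p (0.62), of 201 candidates detected on at least as many arrays. Let-7b-5p and miR-130b-3p were among the miRNAs called lower, with log2 fold changes of −2.50 and −1.35 (limma, adjusted p 0.0371 and 0.00700). For miR-21a-5p they were miR-125b-5p (0.81), miR-15b-5p (0.92) and miR-29c-3p (0.92), and for miR-223-3p they were miR-128-3p (0.62), miR-23a-3p (0.79) and miR-106b-5p (0.90), of 156 candidates. None of these 6 was called (limma, adjusted p 0.15 to 0.764). For miR-142a-5p the nearest were miR-181b-5p, miR-181d-5p and miR-139-3p, at 0.022 to 0.067, and their floored signals, like its own, hardly varied between arrays.

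Both slide rows held both groups, which allowed each member to be read within a row. In the first row (replicates 1 and 2) and the second row (replicates 3 and 4) the log2 fold change was −2.51 and −1.20 for miR-142a-3p, −2.75 and −2.48 for miR-21a-5p, and −1.78 and 0 for miR-223-3p at a floor of 100. At a floor of 1 these were −5.90 and −7.85, −6.08 and −9.12, and −2.84 and −1.21, and those of miR-142a-5p were −3.88 and −6.03. No member changed direction between rows, although miR-223-3p lay at the floor on every array of the second row in the first of these comparisons. The arms of miR-142a could not be above 0 at a floor of 100, since every irradiated array lay at it. With the row as a block, miR-142a-3p was at −1.86 with an adjusted p of 0.0376 in limma. That fit called 18 miRNAs higher and 8 of 208 lower.

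**Figure D5:**
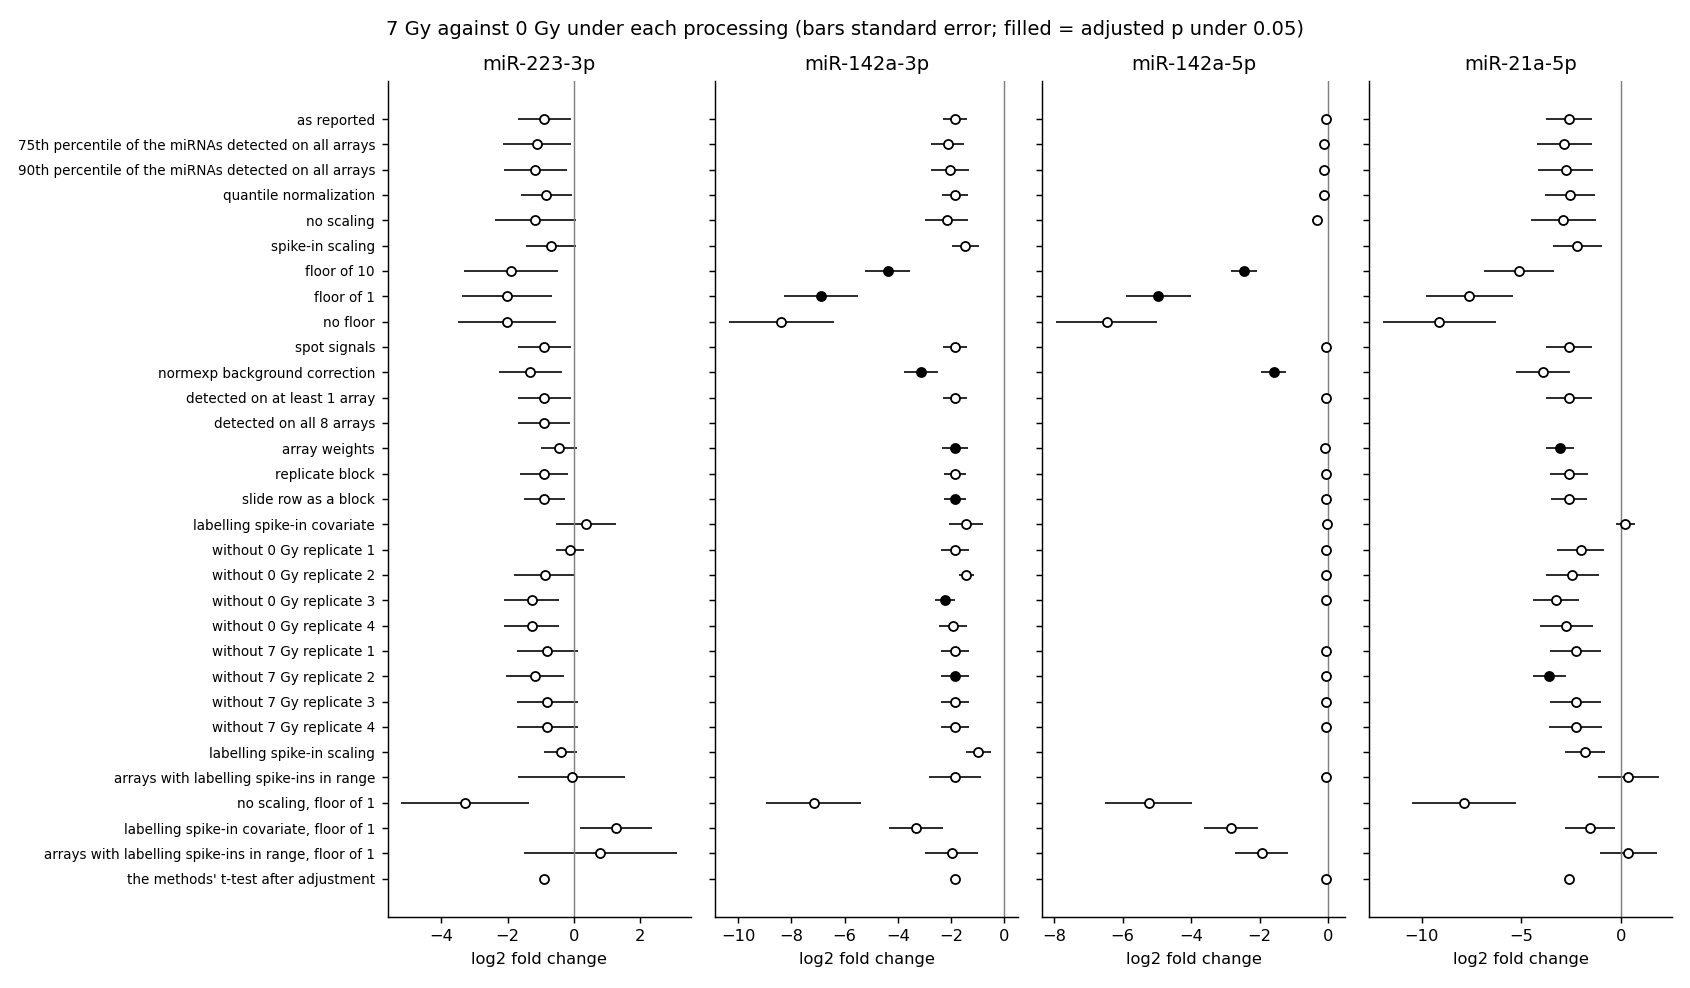
Log2 fold change of 7 Gy against 0 Gy for each detected member (horizontal) under each processing (vertical), with bars for the standard error and filled points for an adjusted p under 0.05. MiR-142a-3p stays below 0 throughout, from −0.98 to −8.38, whereas miR-21a-5p and miR-223-3p stand above 0 with the labelling spike-in covariate at a floor of 100 and with the arrays in range alone at a floor of 1.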

How the data were processed

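RNA of 4 sera of non-irradiated and 4 sera of irradiated mice had been labelled with Cy3 and hybridised to 1 slide of 1-colour mouse miRNA arrays. The intensity values deposited by the authors are Feature Extraction output, version 11.5 in the submitters' processing notes and the file headers. Background had been subtracted and signals summed over the spots of each miRNA, with 0.1 wherever the software called a miRNA undetected, and with no normalization between arrays. The number of arrays, and not a count of molecules, limits the precision.

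Control probes were left out. The signals of an array were multiplied by 1 factor that brought its 90th percentile over the 1881 miRNAs to the geometric mean of the 8 percentiles, as the study's percentile shift does. Values under 100 were set to 100, since the methods name a lower cut-off of 100 without saying whether it replaced or removed values, and log2 was taken. Detection on at least 3 arrays was met by 633 miRNAs, of which 425 stayed at the floor throughout and 208 were tested with limma 3.58.1 in R 4.3.3 and Benjamini-Hochberg adjustment, with no covariate. Single miRNAs were also compared by two-sided exact permutation tests over 70 arrangements. Probes were tested on their mean spot signals, scaled by the same factors. Figures were drawn with matplotlib 3.10.9.

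The 6 members, the lists of other leukocyte, red cell, platelet and endothelial, liver, muscle, and epithelial and islet miRNAs, and the tests were chosen with earlier results of these data known. All 6 members are described. In each list up to 4 tested miRNAs with the highest mean signal could be named, and beside each tested member the 3 miRNAs most like it. Replicate numbers were not taken to pair the samples, and the block is an alternative.

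Alternatives were other scalings, floors, filters and spot summaries, normexp background correction of median spot signals (offset 50), array weights, the methods' t-test, replicate or slide row as a block, a covariate for the labelling spike-ins, and leaving out each array. Scaling to the labelling spike-ins alone, the arrays with these spike-ins in range alone, the exact tests at a floor of 1 or with no scaling, and the fits at a floor of 1 with no scaling, with the covariate or with the arrays in range were chosen after seeing the data. Other experiments of the study were not analysed here.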

Additional observations from a re-analysis of the deposited data

Results flagged for a closer look

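In 3 of 8 groups tested (4 members in 2 dose groups), 1 array stood apart from the other arrays of its group after scaling and the floor of 100 (Dixon's criterion, which chance meets in about 1 in 20 groups). The values were 215 for miR-223-3p and 1567 for miR-21a-5p, both on 7 Gy replicate 2, and 115 for miR-142a-5p on 0 Gy replicate 4. In all 3 the other 3 arrays of the group lay at the floor of 100, so that a single value above the floor was enough. 7 Gy replicate 2 was the only irradiated array with labelling spike-ins in range.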

How the results depend on the processing

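At a floor of 100, all tested members were below 0 under the 90th percentile over miRNAs detected on all arrays, the 75th percentile, quantile normalization, no scaling, spike-in scaling and labelling spike-in scaling, although miR-142a-5p lay at the floor on all arrays with both spike-in scalings and without 0 Gy replicate 4, and gave no value. The median of all tested miRNAs moved between −0.12 and 0.50 with these scalings. MiR-142a-3p passed the threshold with a floor of 10 (−4.38), a floor of 1 (−6.87), normexp (−3.13), array weights (−1.85) and the slide row as a block (−1.86). MiR-142a-5p passed with a floor of 10 (−2.47), a floor of 1 (−4.96) and normexp (−1.59), and miR-21a-5p with array weights (−3.06). With no floor miR-142a-3p (−8.38, adjusted p 0.124) and miR-142a-5p (−6.47, adjusted p 0.124) missed it. The sign turned for miR-223-3p with the labelling spike-in covariate (0.38), that covariate at a floor of 1 (1.28) and the arrays with spike-ins in range at a floor of 1 (0.80), and for miR-21a-5p with the covariate (0.21) and with the arrays in range at a floor of 100 or of 1 (0.36 in each). The cause was not tested.

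Leaving out 1 array gave log2 fold changes of −1.28 to −0.12 for miR-223-3p, −2.23 to −1.42 for miR-142a-3p, −0.065 to −0.049 for miR-142a-5p and −3.61 to −2.02 for miR-21a-5p, with 0 to 56 miRNAs called higher and 1 to 14 called lower, of which 56 and 14 without 7 Gy replicate 2. Against 4 called higher and 4 called lower as reported, the counts were 7 and 11 with the 75th percentile, 6 and 1 with the 90th percentile over detected miRNAs, 9 and 19 with a floor of 10, 2 and 6 with a floor of 1, 2 and 0 with no floor, 4 and 13 with normexp, 61 and 14 with array weights, 18 and 8 with the slide row, and 1 and 0 on the arrays in range at a floor of 100. They were 0 and 0 with no scaling (also at a floor of 1), both spike-in scalings, the covariate at either floor, the arrays in range at a floor of 1 and the replicate block. The methods' t-test gave 1 and 1 after adjustment, and 34 and 14 unadjusted with the 1.5-fold threshold. The unadjusted counts are larger than those of the study's own list, which names none of the members, miR-142a-3p included.

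With the replicate number as a block, miR-142a-3p was at −1.86 (limma, adjusted p = 0.0965) and miR-21a-5p at −2.62 (adjusted p = 0.151), with 47 and 18 miRNAs at an unadjusted p under 0.05. Deviations of same-numbered arrays from their group means correlated by −0.34, 0.43, 0.55 and 0.42 for numbers 1 to 4, and 1 of 4 numbers correlated best with its own. As 1 pair was below 0, the numbers were not taken to pair the samples, although the other 3 pairs were above 0 and numbers 1 and 2 share a slide row, as do 3 and 4. Tests of differences between members were not run, since no pair was detected on 3 irradiated arrays.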
